A study of Mus musculus with 6 samples.

Results

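Far from any gene start, 484 windows of the mouse genome differed in DNA methylation between bone marrow cells with wild-type IDH1, mutant IDH1 or exposure to the metabolite R-2HG. They make up 22.7% of the 2135 windows listed over the 3 deposited comparison tables. A window was taken when its nearest transcription start site belonged to a RefSeq NM_ transcript, which stands for an mRNA, and lay more than 50 kb away. Another 1312 listed windows lay within 50 kb of such a start, and 339 were nearest to a noncoding NR_ transcript, 135 of them also beyond 50 kb.

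The cells came from the bone marrow of C57BL6 mice and were immortalised by HoxA9, a homeobox factor that keeps myeloid progenitors dividing. All 3 groups therefore share HoxA9, and each went into irradiated mice. IDH1wt cells (2 libraries) carried pSF91-IDH1wt-IRES-EGFP, and IDH1mut cells (2 libraries) carried pSF91-IDH1mut-IRES-GFP, named R132C in a deposited table. R-2HG cells (2 libraries) carried an empty vector and came from mice dosed with 1 mg of R-2HG per day for 4 weeks. GFP-positive cells were sorted at 4 weeks, and reduced representation bisulfite sequencing (RRBS) read methylation in MspI fragments rich in CpG. Nothing in the labels tells whether both libraries of 1 group stem from different mice. The R-2HG group differs from both others in its vector as well as in the treatment, so vector and treatment cannot be told apart. The files hold no expression values, and the sorted cells were not checked against markers here.

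DNA far from gene starts holds enhancers, which can act on genes at long range, as well as CpG islands with no annotated promoter and repeats. Active enhancers are usually low in methylation, and TET enzymes, which oxidise methylcytosine with 2-oxoglutarate as cosubstrate, act at many of them. Wild-type IDH1 makes 2-oxoglutarate, while the R132C enzyme makes R-2HG, a competitor of 2-oxoglutarate at TET and related enzymes. The nearest gene named below says only where a window lies, since a distal element need not act on its nearest gene.

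Each value is the authors' difference in methylation, in percentage points, between the means of 2 groups. The tables list only windows with an absolute difference of at least 25 points and a q of at most 0.00995, so they do not show how many distal windows were covered. Up to a reversal of all signs, only 1 order lets the tables add up: the largest residual was 0 at the 3 windows listed in all tables, and the other orders left 65.7 to 139 points. Values are read here as IDH1mut minus IDH1wt, then R-2HG minus IDH1wt, and lastly R-2HG minus IDH1mut. Under the opposite reading, which the data allow equally, every gain is a loss in all 3 comparisons. No value per library was used and read depth is unknown, so no difference below carries an SD or a test of its own. In sorted bulk cells a change in every cell and a change in the mix of cells cannot be told apart.

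Distal windows, like all listed windows, were mostly gains of methylation in both comparisons with IDH1wt and mostly losses between R-2HG and IDH1mut. In the authors' deposited table for IDH1mut minus IDH1wt, 359 windows were distal, 267 of them gains and 92 losses. Gains were thus 74.4% of the distal windows, beside 69.3% of all listed windows and 67.0% of those within 50 kb of an NM_ start. Promoter windows, from -2000 to 500 bp of an NM_ start, held 73.9% gains, close to the distal share. For R-2HG minus IDH1wt, 149 of 183 distal windows were gains per the authors' deposited table. That is 81.4%, beside 68.0% of all listed windows, 61.2% within 50 kb and 63.3% of promoter windows. With NR_ transcripts included, the share beyond 50 kb was lower, 77.8% of 234 windows. For R-2HG minus IDH1mut, 44 of 121 distal windows were gains per the authors' deposited table. That is 36.4%, beside 35.5% of all listed windows, 32.7% within 50 kb and 26.8% of promoter windows. These shares are descriptions, and no test of their difference was made because windows are not replicates.

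Neighbouring windows overlap, so windows of 1 comparison whose starts lay within 1000 bp were also joined into clusters. Of the distal clusters, 163 of 221 were gains for IDH1mut, 93 of 116 for R-2HG and 30 of 78 for R-2HG minus IDH1mut. No cluster held both a gain and a loss of 1 comparison. The sizes of the differences resembled those of the whole tables. Distal gains had a median of 30.8 points for IDH1mut (all listed gains 30.6) and 30.7 for R-2HG (all listed gains 29.4) per the authors' deposited tables. Distal losses had medians of -28.3 and -27.8 points, and distal differences between R-2HG and IDH1mut had medians of 28.4 for gains and -28.4 for losses, per the authors' deposited tables.

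**Figure D1:**
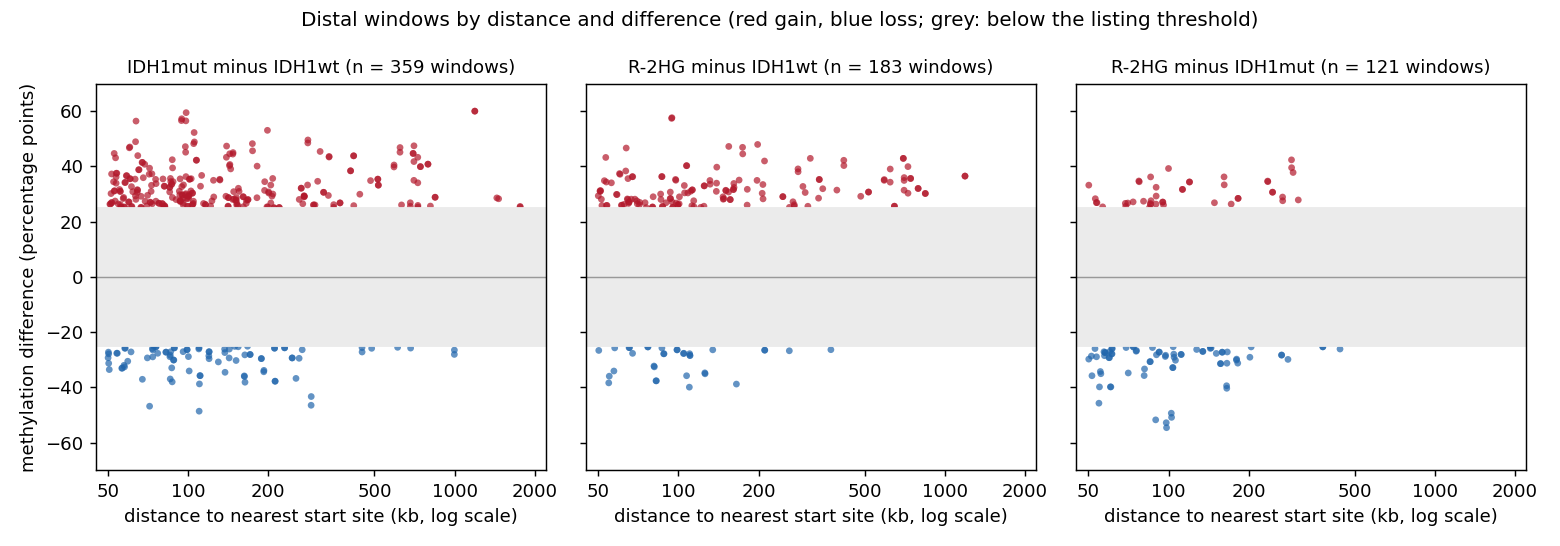
Each point is a distal window, with its distance to the nearest NM_ start on a log axis (kb) and its methylation difference in percentage points, for the 3 comparisons. The grey band marks differences under 25 points, which the tables do not list, and no window of R-2HG minus IDH1mut lies beyond 500 kb.

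The median distance of the distal windows to a start was 104888 bp, with quartiles of 73574 and 189383 bp and a farthest window at 1763186 bp. Downstream windows numbered 281 and upstream windows 203. For IDH1mut, 127 of 155 upstream and 140 of 204 downstream windows were gains, and for R-2HG 84 of 100 and 65 of 83, per the authors' deposited tables.

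The share of gains was highest in the windows farthest from a start site, in both comparisons with IDH1wt. Distance was taken to the start alone, so a downstream window can lie inside its gene. For IDH1mut it was 75.3% at 50 to 100 kb, 68.3% at 100 to 200 kb, 72.9% at 200 to 500 kb and 89.2% beyond 500 kb, where 33 of 37 windows were gains. For R-2HG the shares in the same order were 75.9%, 79.2%, 85.7% and 100%, and all 23 windows beyond 500 kb were gains. Between R-2HG and IDH1mut the shares were 36.9% at 50 to 100 kb, 26.3% at 100 to 200 kb and 55.6% at 200 to 500 kb. No window of that comparison was listed beyond 500 kb, and the farthest lay 440322 bp upstream of Atp10a. Joined into clusters, the windows beyond 500 kb came to 18 gains and 3 losses for IDH1mut and 11 gains for R-2HG. Both comparisons use the same IDH1wt libraries, so these are not independent counts, and the part of those libraries in the shares was not tested.

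**Figure D2:**
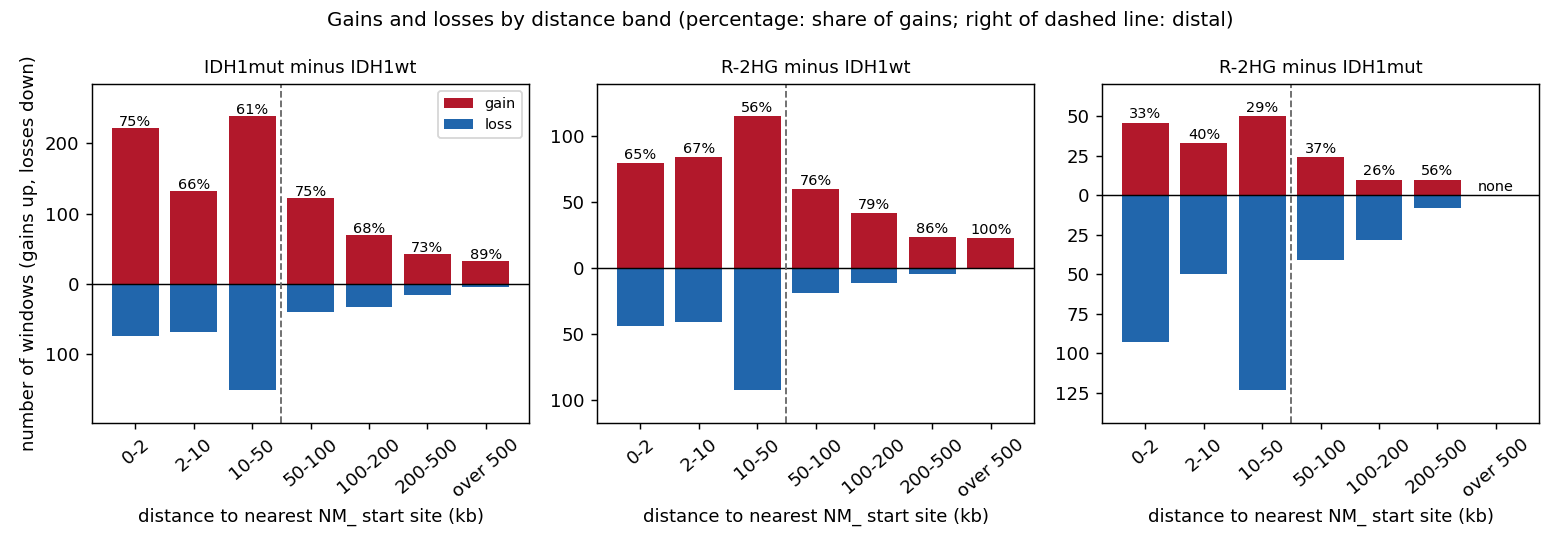
Bars count listed windows nearest to an NM_ start by distance band, gains upward and losses downward, with the share of gains printed above each band and the distal bands to the right of the dashed line. Beyond 500 kb the counts are 33 gains and 4 losses for IDH1mut, 23 gains for R-2HG and none for R-2HG minus IDH1mut.

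Loci beyond 500 kb numbered 22, and 10 of them were listed for both IDH1mut and R-2HG. The largest distal gain for IDH1mut lay 1191358 to 1191608 bp downstream of Cdh8, a classical cadherin of neurons, on chromosome 8 from 100748251 to 100749000 in mm9. Its 2 windows differed by 60.0 points each for IDH1mut and by 36.5 points each for R-2HG per the authors' deposited tables. Upstream of Cntn5, which encodes a contactin of the neuronal surface, the windows at -727727 and -727977 bp gained 43.3 and 34.1 points for IDH1mut and 40.0 and 30.3 for R-2HG per the authors' deposited tables. Lrrtm1, a leucine-rich synaptic protein gene, had 2 windows with 39.9 points for IDH1mut and 35.7 for R-2HG at -744461 and -744711 bp per the authors' deposited tables. Hs3st5, a heparan sulfate sulfotransferase gene, had 2 windows at -794613 and -794863 bp with 40.8 points for IDH1mut and 32.0 for R-2HG per the authors' deposited tables. Olfm4, the gene of a secreted glycoprotein of neutrophils and gut, had 2 windows at 845394 and 845644 bp with 28.9 and 30.2 points in the same order per the authors' deposited tables. These 5 loci are the farthest listed for R-2HG, and all were gains in both comparisons, which share the IDH1wt libraries.

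Dsel, a gene of dermatan sulfate synthesis, had more distal windows than any other gene, 7 in 3 places on chromosome 1. At 109996 bp downstream the difference was -48.6 points for IDH1mut and -39.9 for R-2HG per the authors' deposited tables, the largest distal loss of both comparisons. Upstream, 2 windows from -699007 bp (114460501 to 114461250) gained 44.7 points for IDH1mut and 42.9 for R-2HG per the authors' deposited tables. A further 3 windows from -703757 bp (114465251 to 114466250) gained 35.0 to 47.5 and 31.4 to 36.0 points per the authors' deposited tables. The sides of this gene thus ran in opposite directions. Each place had the same direction in both tables, but these share the IDH1wt libraries, so that is no independent agreement. The next genes by number of distal windows were 2410141K09Rik, Edn3, Gxylt1, Neurl1a, Skor2 and Tgif2lx2, with 4 each.

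Gxylt1, a glycosyltransferase gene that acts on Notch receptors, held the single locus of 4 joined windows (chromosome 15, 92832001 to 92833250). From 272266 bp downstream these windows gained 29.0 to 29.4 points for IDH1mut, and 2 of them gained 25.7 and 26.2 points for R-2HG, per the authors' deposited tables. The windows of 2410141K09Rik lay in 2 places upstream and gained 29.2 to 30.8 points for IDH1mut per the authors' deposited table. Those of Neurl1a, a ubiquitin ligase gene, lay in 2 places from 85420 and 109670 bp and were losses of -25.6 to -36.9 points for IDH1mut, while R-2HG was above IDH1mut by 26.6 and 36.2 points at the nearer place, per the authors' deposited tables.

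The 5 farthest clusters for IDH1mut lay near Flrt2, B3galt2, Lrp1b, Cdh8 and Stpg2. The windows at -1762936 and -1763186 bp of Flrt2, an adhesion molecule gene, gained 25.5 and 25.3 points per the authors' deposited table. That at -1463827 bp of B3galt2, a galactosyltransferase gene, gained 28.3 points, and that at 1441119 bp of Lrp1b, a lipoprotein receptor gene, gained 28.6 points per the authors' deposited table. Those near Stpg2, at 998396 and 998646 bp, were losses of -28.1 and -26.5 points per the authors' deposited table. For R-2HG minus IDH1mut the farthest after Atp10a (-26.1 points) were Fut8, a fucosyltransferase gene, with -25.3 points at 379375 bp, and Cldn26, now Tmem114, with 27.9 points at 306980 bp per the authors' deposited table. Of the 5 farthest for IDH1mut, apart from Cdh8 none of the clusters was listed for R-2HG against IDH1wt. B3galt2 also had 2 nearer windows, at -57827 and -58077 bp, that were losses of -25.8 points each for IDH1mut per the authors' deposited table.

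**Figure D3:**
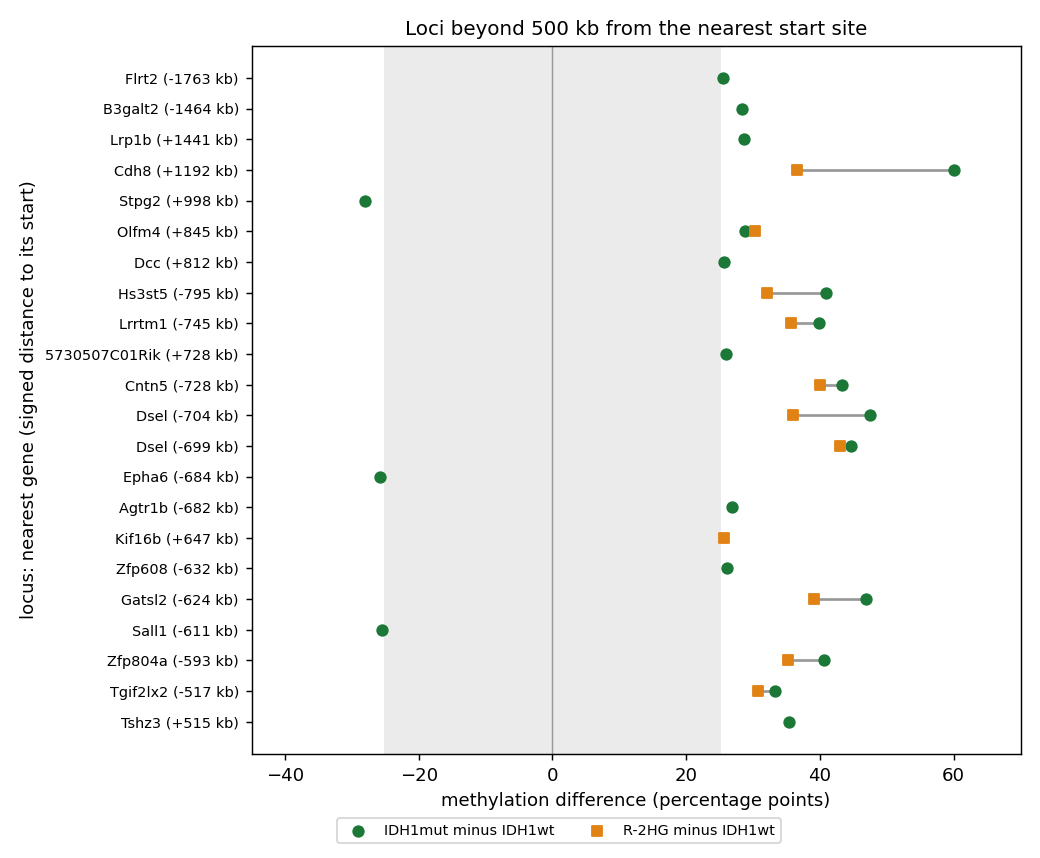
Each row is a locus beyond 500 kb, labelled with its nearest gene and the signed distance to that gene's start, and shows the listed difference for IDH1mut (circle) and R-2HG (square) against IDH1wt in percentage points, 1 window per locus. Where both are listed they are joined by a line, both are gains, and the Cdh8 locus has the widest gap, 60.0 against 36.5 points.

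Among all distal windows, the 8 largest cluster gains for IDH1mut lay near Cdh8, Bach1, Elmo1, Zranb3, Rnf217, Gm10375, Tgif2lx2 and Pex2. Elmo1 encodes an adaptor that activates Rac during engulfment and migration. Its window at -94626 bp (chromosome 13, 20087251 to 20087750) gained 57.3 points for IDH1mut and 57.7 for R-2HG, with q of 1.5e-06 and 6e-07, per the authors' deposited tables. Windows near Zranb3, a helicase gene of replication stress, gained up to 56.4 points for IDH1mut and 46.7 for R-2HG per the authors' deposited tables (chromosome 1, 129934751 to 129935750). Near the ubiquitin ligase gene Rnf217 the gains were 53.1 and 48.0 points, and near the peroxisome gene Pex2 48.3 and 46.9 points, per the authors' deposited tables. Gm10375 is a predicted gene, and Tgif2lx2 is a homeobox gene of the X chromosome with a close copy, Tgif2lx1. Their windows gained up to 52.3 and 49.6 points for IDH1mut and 33.1 and 39.1 points for R-2HG per the authors' deposited tables.

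Alk, Lrrc16a and Rbfox1 were the remaining genes of the 8 largest gains for R-2HG beside Elmo1, Rnf217, Pex2, Zranb3 and Dsel. Alk, a receptor tyrosine kinase gene, gained 47.3 points for R-2HG at 154648 bp, a window not listed for IDH1mut, per the authors' deposited table. In the overlapping window at 154398 bp the gains were 32.1 points for IDH1mut and 30.8 for R-2HG per the authors' deposited tables. Lrrc16a, now named Carmil1 and encoding an actin regulator, gained 43.3 and 43.1 points at 53410 bp per the authors' deposited tables. Rbfox1, a splicing factor gene, gained 42.9 points for R-2HG and 45.4 for IDH1mut at -312928 bp per the authors' deposited tables. All 8 of these genes were also listed as distal gains for IDH1mut, against the same IDH1wt libraries.

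In both comparisons with IDH1wt the distal losses were fewer than the gains and had smaller medians. After Dsel, the largest distal losses for IDH1mut lay near Trabd2b, which encodes a protease that inactivates Wnt ligands (-46.8 points at 71674 bp), and Zfp536, a zinc finger repressor gene (-46.5 points at 289522 bp), per the authors' deposited table. Celf4, Akap2, Kcnh8, Sipa1l1 and Neurl1a followed with -38.1 to -36.9 points per the authors' deposited table. For R-2HG the losses after Dsel lay near Irx3, Tcl1, Tmem130, Rgma, Ctnna3, Fam134b (now Retreg1) and Dmrtb1, from -38.8 to -32.6 points per the authors' deposited table. Of these 7, Tmem130 was also a distal loss for IDH1mut, with -27.2 points per the authors' deposited table, and Irx3 and Dmrtb1 had other distal windows listed there.

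Of the 484 windows, 305 stood in 1 table, 179 in 2 tables and none in all 3. That puts 37.0% of distal windows in 2 tables, beside 33.0% of all listed windows (705 of 2135). The tables share libraries pairwise, so an overlap between them is given only to say how many values can be set side by side. Both comparisons with IDH1wt listed 123 windows, which is 34.3% of the distal windows of IDH1mut and 67.2% of those of R-2HG. The matching shares over all listed windows were not computed for any pair of comparisons. None of the pairwise counts here or below is therefore read as a distal trait. At these windows R-2HG minus IDH1mut, taken by subtraction, ran from -23.5 to 10.9 points with a median of -3.38, and it stayed within 10 points at 99 of them. It was not listed there, and over all listed windows in 2 tables the subtracted value was under 25 points at 705 of 705. Its small size is thus largely set by the listing rule. Windows listed for IDH1mut alone numbered 191, for R-2HG alone 49 and for R-2HG minus IDH1mut alone 65. Together they made up 63.0% of the distal windows, beside 66.8% of all listed windows.

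IDH1mut stood apart from the other groups at 45 distal windows in 30 joined places, which were listed both against IDH1wt and against R-2HG. At 29 of these windows IDH1mut was the higher group and at 16 the lower. R-2HG minus IDH1wt was not listed there, so the listing rule had largely kept it small. Subtraction put it between -18.2 and 19.5 points, within 10 points at 39 of the 45. The 6 others lay near Fgfr2, Meis1, Zbtb7c and Hsfy2.

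The largest of these differences lay near Bach1, which encodes a heme-sensing transcription repressor. Its windows at 98054 and 98304 bp (chromosome 16, 87797251 to 87798000) gained 56.5 and 59.5 points for IDH1mut and were lower in R-2HG than in IDH1mut by -52.8 and -54.6 points per the authors' deposited tables. Subtraction left R-2HG 3.73 and 4.91 points above IDH1wt there. Zfp536 showed the opposite arrangement, with -43.3 and -46.5 points for IDH1mut and 39.6 and 42.4 points for R-2HG minus IDH1mut per the authors' deposited tables. R-2HG was then -3.75 to -4.07 points from IDH1wt by subtraction.

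Near Fgfr2, a fibroblast growth factor receptor gene, IDH1mut was above IDH1wt and R-2HG below it. The windows at -102430 and -102680 bp (chromosome 7, 137512751 to 137513500) gained 31.2 and 35.6 points for IDH1mut and differed by -49.3 and -50.9 points between R-2HG and IDH1mut per the authors' deposited tables. Subtraction gave R-2HG minus IDH1wt values of -18.2 and -15.3 points, under the listing threshold. Near Meis1, the HoxA9 cofactor gene, 3 windows from 142973 bp downstream (chromosome 11, 18775001 to 18776000) gained 40.3 to 44.6 points for IDH1mut per the authors' deposited table. R-2HG was lower than IDH1mut by -25.9 and -25.1 points in 2 of them per the authors' deposited table, which left it 14.9 and 19.5 points above IDH1wt.

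R-2HG stood apart at 11 distal windows in 7 places, near Tcl1, Pcp4, Arap3, Dmrtb1, Vamp3, Rybp and Irx3. IDH1mut minus IDH1wt was not listed there, so the listing rule had largely kept it small. By subtraction it was within 10 points at all 11, from -5.05 to 7.35 points. Near Tcl1, which encodes an activator of AKT kinases, the window at -54805 bp (chromosome 12, 106515751 to 106516250) differed by -38.4 points from IDH1wt and by -45.7 points from IDH1mut per the authors' deposited tables. Near Rybp, a Polycomb complex gene, 2 windows from 161603 bp downstream were higher by 32.4 to 33.8 points against IDH1wt and by 33.4 to 36.2 points against IDH1mut per the authors' deposited tables. Pcp4, the gene of a calmodulin-binding peptide, was higher by 32.8 and 37.8 points in the same order at 293540 bp per the authors' deposited tables. Vamp3, a vesicle fusion gene, was higher by 31.5 and 31.7 points in the same order at -112690 bp per the authors' deposited tables.

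**Figure D4:**
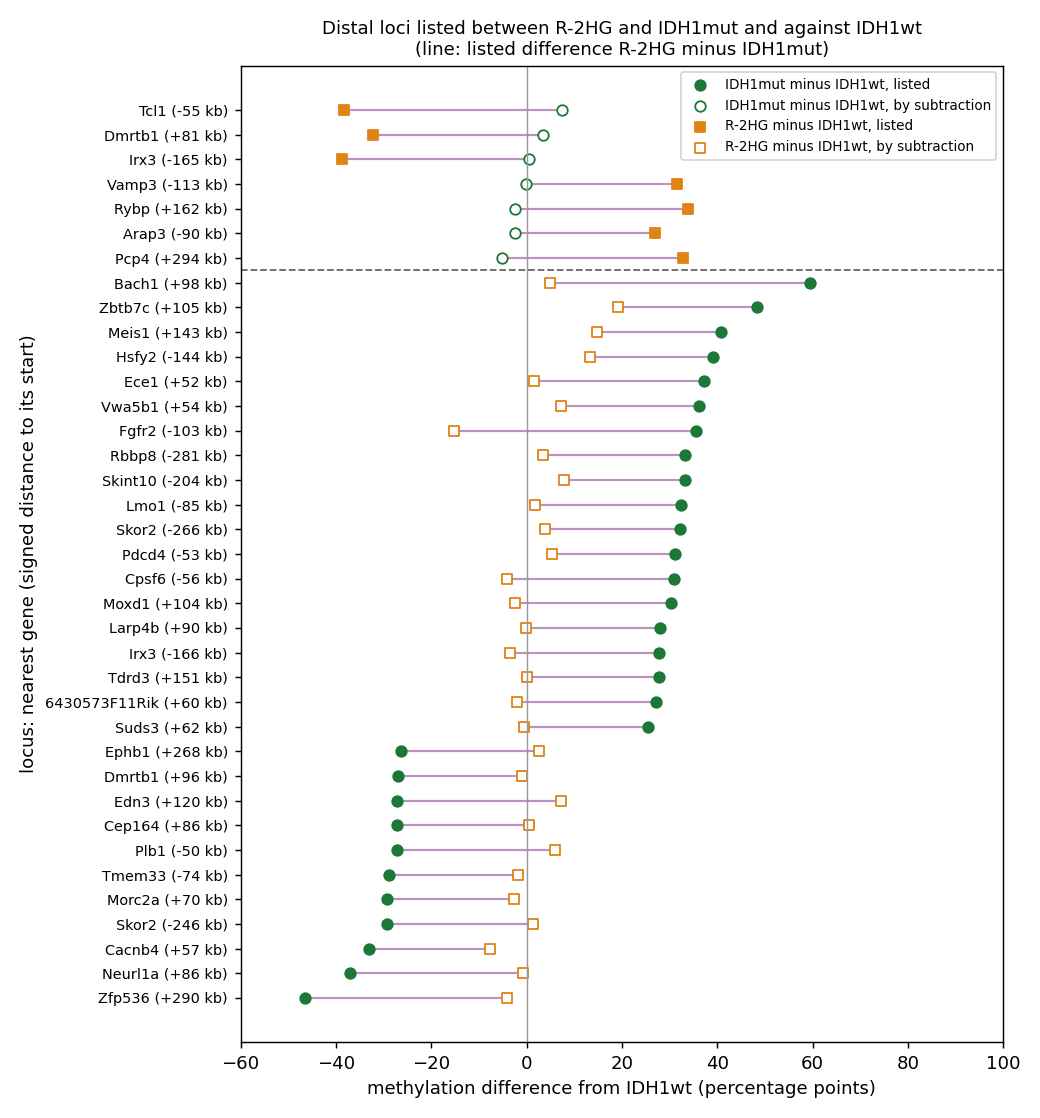
Each row is a distal locus listed for R-2HG minus IDH1mut and for 1 comparison with IDH1wt, with IDH1mut (circles) and R-2HG (squares) placed by their difference from IDH1wt in percentage points, 1 window per locus and pattern; filled symbols are listed values, open symbols come from subtraction, and the line is the listed difference between both. Below the dashed line IDH1mut is the listed group and R-2HG lies between -15.3 (Fgfr2) and 19.2 points (Zbtb7c), and above it R-2HG is the listed group and IDH1mut lies between -5.05 and 7.35 points.

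The locus upstream of Irx3, an Iroquois homeobox gene with long-range enhancers, held more than 1 pattern within 1000 bp of chromosome 8 (94490751 to 94491750). At -165199 bp R-2HG was lower than IDH1wt by -38.8 points and lower than IDH1mut by -39.4 points per the authors' deposited tables, and IDH1mut was 0.601 points from IDH1wt by subtraction. At -165699 bp IDH1mut was instead higher than IDH1wt by 27.7 points, R-2HG was lower than IDH1mut by -31.2 points per the authors' deposited tables, and R-2HG was -3.51 points from IDH1wt by subtraction. The window between them, with R-2HG minus IDH1mut as its single listed value, had -40.3 points per the authors' deposited table. These 3 windows overlap, so each shares sequence with its neighbour.

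Among windows listed for R-2HG minus IDH1mut alone, the largest difference lay near Zfp36l1, an mRNA decay factor gene. It was -51.8 points at 89501 bp (chromosome 12, 81124001 to 81124500) with q = 0.00185 per the authors' deposited table. Ier2, an immediate early gene, had -39.8 points from 60502 bp, and the cadherin gene Cdh6 had -34.8 points at -70608 bp per the authors' deposited table. After Esr1, described with its list, the largest gains of this kind, 34.7 points each per the authors' deposited table, lay near Piwil1, a piRNA pathway gene, and Dmrta1, a DM domain factor gene.

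Several genes had distal windows in both directions in separate places. Near Trabd2b the loss for IDH1mut at 71674 bp (chromosome 4, 114151001 to 114151500) lay close to a gain of 29.6 points at 70424 bp (114149751 to 114150250) per the authors' deposited table. Skor2, a neuronal corepressor gene, gained 32.1 points for IDH1mut at -265644 bp and had a loss of -29.3 points at -245644 bp per the authors' deposited table. Both places were reversed between R-2HG and IDH1mut, with -28.3 and 30.7 points per the authors' deposited table. Edn3, the endothelin 3 gene, gained 34.5 points for IDH1mut at up to 52744 bp and had a loss of -27.1 points from 119744 bp per the authors' deposited table. At the second place R-2HG was higher than IDH1mut by 34.4 points per the authors' deposited table. Ece1, which encodes the enzyme that activates endothelins, gained 30.2 and 37.3 points for IDH1mut from 51351 bp, and R-2HG was lower than IDH1mut there by -28.7 and -35.8 points per the authors' deposited tables.

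Near Dmrtb1, a DM domain gene, the groups that stood apart differed between places. At 95768 bp IDH1mut was the lower group, with -27.1 points against IDH1wt and 26.0 points for R-2HG minus IDH1mut per the authors' deposited tables. From 81018 bp R-2HG was the lower group, with -32.3 to -32.6 points against IDH1wt and -33.3 to -35.7 points against IDH1mut per the authors' deposited tables. Of the 205 genes nearest to a distal window of IDH1mut, 148 had gains, 49 losses and 8 both. For R-2HG the counts were 87, 22 and 1 of 110 genes, and for R-2HG minus IDH1mut 26, 46 and 2 of 74.

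The distal windows were also set against 7 gene lists with 533 genes, and 38 of these genes (7.13%) were nearest to a distal window. Over all RefSeq protein-coding genes with an NM_ transcript it was 1.28% (269 of 21031). These shares take no account of how far each gene lies from the next, and the lists were chosen with earlier results known, so nothing particular to a list is read from them. Among genes nearest to a listed window at any distance, 38 of 79 list genes had a distal window, beside 275 of 1031 over all genes. Of 116 homeobox and other developmental transcription factor genes, 9 had distal windows. The list is not complete: the homeobox genes Tgif2lx2, Isl1, Uncx, Tshz2 and Tshz3 also had distal windows. R-2HG had -27.7 points near Isl1 (-104606 bp) and 25.1 points near Uncx (95151 bp) per the authors' deposited table. Uncx also had losses of -28.3 and -27.3 points for R-2HG at 36151 and 36401 bp. For IDH1mut, Tshz3 gained 35.4 points, while the developmental factor genes outside the list Sall1 and Foxl1 had -25.5 points and both directions (31.1 and -29.6). Tshz2 had gains for R-2HG minus IDH1mut alone. Among the list genes, 6 of 7 were gains for IDH1mut and Skor2 had both directions. Foxa1, a pioneer factor gene, gained 35.4 points at 101109 and 101359 bp, and Gsc, a homeobox gene of the embryonic organiser, gained 32.9 points at -81306 and -81556 bp, per the authors' deposited table. Sox9, a gene with known enhancers at long range, gained 35.7 points for IDH1mut and 33.5 for R-2HG at 207729 bp (chromosome 11, 112851251 to 112851750) per the authors' deposited tables. For R-2HG, Six2, Sox9 and Nkx6-1 were gains, while Irx1 had a loss of -25.6 points at -65331 bp per the authors' deposited table, as had Irx3.

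Of 72 genes of blood stem cells and their lineages, 5 had distal windows, with Meis1 standing in both lists. For IDH1mut these were Bach1, Etv6 and Meis1, all gains, and for R-2HG Etv6 and Hmga2, both gains. Etv6, a repressor gene required by blood stem cells, gained 44.7 and 34.9 points at 52778 bp (chromosome 6, 134038501 to 134039000), with q of 1.4e-10 and 3e-08, per the authors' deposited tables. Between R-2HG and IDH1mut, Bach1, Meis1 and Zfp36l1 were all lower.

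Of 102 genes of Wnt, Notch, TGF-beta, BMP and FGF signalling, 8 had distal windows. For IDH1mut 6 of 7 were gains, Dusp6, Fgfr2, Fzd10, Inhbb, Rbpj and Smad5, and Ctnnb1 was the loss. This list is not complete either, so the split describes its own genes only. Outside it, Trabd2b, which acts on Wnt ligands, had a loss of -46.8 points and a gain of 29.6 points for IDH1mut. Gxylt1, which acts on Notch receptors, gained up to 29.4 points. Fzd10 also had a loss of -27.8 points for IDH1mut at 44772 bp, within the limit of 50 kb, per the authors' deposited table. Smad5, which carries BMP signals to the nucleus, gained 30.9 points at 61974 bp and Rbpj, the DNA-binding factor of Notch signalling, 30.8 points at -85268 bp per the authors' deposited table. Inhbb, an inhibin and activin subunit gene, gained 29.8 points at 93076 bp per the authors' deposited table. Dusp6, an ERK phosphatase gene, gained 36.7 points for IDH1mut and 29.8 for R-2HG at -58865 bp per the authors' deposited tables. For R-2HG the other gene was Wnt5a, a Wnt ligand gene, with -26.4 points at -134659 bp per the authors' deposited table.

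Of 130 neuronal adhesion, synapse and ion channel genes, 13 had distal windows, 7 gains and 4 losses for IDH1mut and 5 gains and 1 loss for R-2HG. Gria4, a glutamate receptor gene, gained 28.7 and 40.1 points for IDH1mut and 26.0 and 31.7 points for R-2HG at -181268 and -181518 bp per the authors' deposited tables. Kcnh8, a potassium channel gene, had the largest loss of the list for IDH1mut, -37.8 points at -211922 bp per the authors' deposited table. Ctnna3, an alpha-catenin gene, was the loss for R-2HG, with -34.7 and -35.1 points per the authors' deposited table. Of 39 cadherin genes Cdh8, Cdh6 and Pcdh19 had distal windows, and Pcdh19 was a loss of -36.7 points for IDH1mut at 254033 bp with q = 0.00133 per the authors' deposited table.

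Of 32 genes listed as growth suppressors or cell cycle inhibitors, Esr1, the oestrogen receptor gene, had distal windows. Its place there is that of the list, and its role in growth was not examined. It had a loss of -28.9 points for IDH1mut at 100246 bp and 39.3 points for R-2HG minus IDH1mut in the overlapping window at 99996 bp, per the authors' deposited tables. None of the 46 genes of DNA methylation, TET, IDH and other 2-oxoglutarate enzymes was nearest to a distal window, and 3 of them were listed closer than 50 kb. With 1.28% of all genes nearest to a distal window, 0 of 46 says nothing about these enzymes. Over all lists, 22 of 30 genes were gains for IDH1mut (148 of 205 over all distal genes) and 12 of 16 for R-2HG (87 of 110). These counts describe the lists and were not tested.

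**Figure D5:**
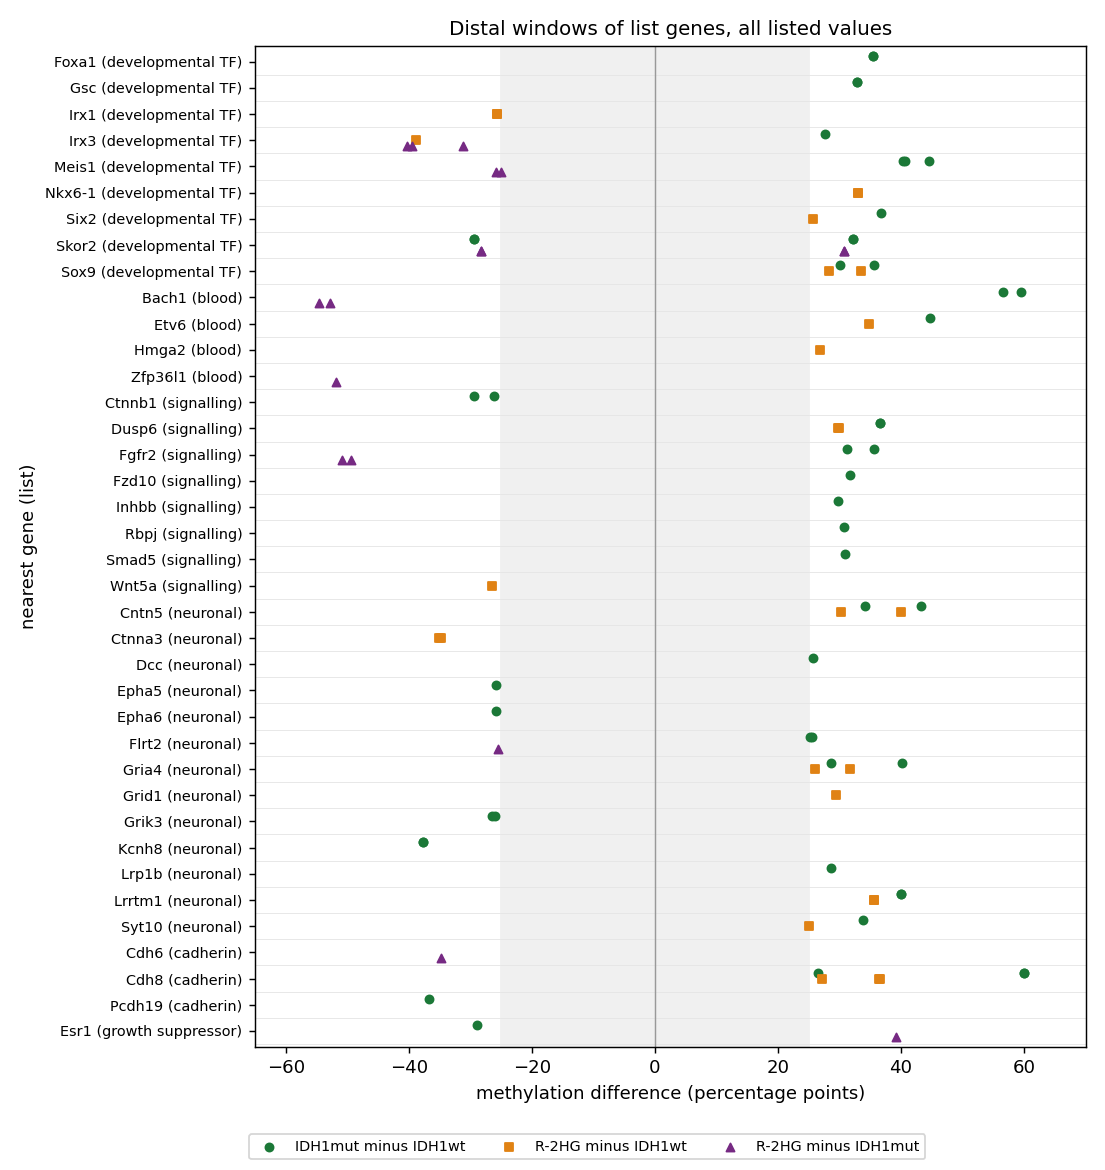
Rows are the genes of the lists with a distal window, with the list in brackets, and symbols give each listed difference in percentage points for IDH1mut minus IDH1wt (circles), R-2HG minus IDH1wt (squares) and R-2HG minus IDH1mut (triangles). The grey band marks differences under 25 points, and the triangles of Bach1, Fgfr2 and Zfp36l1 lie farthest to the left, at -49.3 to -54.6 points.

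The limit of 50 kb cut through some loci. Just inside it lay Hnrnpa3 (-50066 bp, -29.3 points for IDH1mut), Grid1 (-50072 bp, 29.4 points for R-2HG) and Tyw3 (-50190 bp, -29.8 points for R-2HG minus IDH1mut), followed by Plb1 (-50203 bp, -27.2 points for IDH1mut) and Ssr3 (-50277 bp, -26.6 points for R-2HG) per the authors' deposited tables. Just outside it lay Plb1 (-49953 bp, -25.7 points for IDH1mut and 31.6 for R-2HG minus IDH1mut) and neighbouring windows of Tyw3 (-49940 bp, -29.8 points) and Grid1 (-49822 bp, 29.4 points), with Fam189a1 (-49838 bp, -39.6 points for R-2HG minus IDH1mut) and Ppp4r2 (49621 bp, 29.4 points for IDH1mut) per the authors' deposited tables.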

How the data were processed

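RRBS libraries were processed by the submitters with Trim Galore, BSMAP, methylKit 0.9.1 and the mm9 build, per the submitters' processing notes. For their settings, coverage filter and test: not given in the sources used here. A deposited row gives the authors' p-value and q-value, the methylation difference (a signed score on the percentage point scale) and the nearest start site with its distance, per the file headers. Windows were 500 bp long with starts on a 250 bp grid. The p-value deposited by the authors was 0 for 64.9%, 62.3% and 75.2% of the distal windows of IDH1mut and R-2HG against IDH1wt and of R-2HG against IDH1mut.

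Repeated rows of a window were counted once. Distal windows were those with an NM_ transcript and an absolute distance above 50 kb. Starts within 1000 bp were joined, which was tested on simulated data. The remaining difference was obtained by subtraction where 2 tables listed a window. The RefSeq table of GRCm38.p6 matched 269 of 275 transcripts and served for current names only. No mm9 annotation was used, so exon, intron and UTR are not given. Python 3.11.15 and pandas 2.3.3 were used.

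The windows and lists were chosen with earlier results of these data known. Named genes are those of the 8 largest cluster gains and losses and the 5 farthest clusters per comparison, the genes with most distal windows, list genes where described, loci of at least 4 joined windows and the 5 windows on each side of the limit. Isl1, Uncx, Tshz2, Tshz3, Sall1, Foxl1, Arap3, Vamp3, Zbtb7c, Hsfy2 and Ube2u fall outside this rule and were chosen after their values were seen. No test was planned, because the tables hold no value per library.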

Additional observations from a re-analysis of the deposited data

How the results depend on the processing

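Counts moved with the limits. A share or a median of gains or of losses keeps its sign by construction, so the alternatives could not reverse it. Over the alternatives the share of gains among distal windows ran from 69.4% to 81.8% for IDH1mut and from 71.8% to 87.8% for R-2HG. For R-2HG minus IDH1mut it ran from 32.7% to 41.3%. In the order IDH1mut minus IDH1wt, then R-2HG minus IDH1wt, and lastly R-2HG minus IDH1mut, a limit of 100 kb left 197, 104 and 56 distal windows in 122, 66 and 35 clusters, with 96 windows in 2 tables. A limit of 25 kb gave 540, 280 and 217 windows in 335, 179 and 134 clusters, with 274 windows in 2 tables. It lowered the share of gains to 69.4% of windows for IDH1mut and 71.8% of windows and 70.9% of clusters for R-2HG. All listed windows held 69.3% and 68.0% gains, so at 25 kb the share for IDH1mut was that of its whole table. An absolute difference of at least 30 points left 176, 98 and 46 windows in 108, 61 and 28 clusters, with 84 windows in 2 tables. It raised the share of gains to 81.8% of windows and 79.6% of clusters for IDH1mut and to 87.8% of windows for R-2HG. The share of all listed windows at 30 points was not computed, so this rise is not read as particular to distal windows. Medians of gains and losses moved to 36.1 and -35.1 points for IDH1mut and to 34.9 and -35.9 points for R-2HG, as a higher limit forces. Fewer windows pass these settings by construction. A q of at most 1e-06, any nearest transcript, and other joining distances kept every count within 1.5 times and every share and median within its 95% binomial interval. That interval took windows or clusters as independent, which overlapping windows are not, and these settings share windows with the main set. It served as a yardstick only and does not measure the spread between libraries. No paired analysis was possible because the tables hold no value per library, and for the same reason no run without 1 library could be made. Read depth is unknown, so the precision of single differences cannot be given.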

Other observations

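Of the 275 genes nearest to a distal window, 33 also had a listed window within 50 kb and 2, Grik3 and Ube2u, had one in the promoter from -2000 to 500 bp. Near Grik3, a kainate receptor gene, IDH1mut had losses of -25.9 and -26.4 points at 73428 and 73678 bp but a gain of 26.8 points at -1825 bp per the authors' deposited table. Near Smad5 the gain of IDH1mut at 61974 bp stood beside one of 38.4 points at -24121 bp per the authors' deposited table. Near Meis1 the distal gains stood beside a loss of -42.4 points at 10973 bp per the authors' deposited table.

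Neighbouring distal windows that started 250 bp apart had the same difference, to within 1e-09 points, in 98 of 247 pairs (39.7%). The other pairs differed by a median of 1.34 points and by up to 18.1 points.

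Chromosome 4 held most distal windows, 47 in 29 joined places, and also most listed windows (183), so its distal share of 25.7% lay near the 22.7% over all chromosomes. Chromosome 13 had the largest share of its listed windows in the distal set, 39.5% (30 of 76). On the X chromosome 14 windows were distal. There IDH1mut had 10 gains and 1 loss and R-2HG 9 gains and no loss. Such counts were not particular to X: chromosome 10 had 22 gains and 1 loss for IDH1mut, and chromosome 2 had 13 gains and no loss for R-2HG. Other chromosomes were more even, with 9 gains and 12 losses for IDH1mut on chromosome 9 and 9 gains and 8 losses for R-2HG on chromosome 13.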
